A study of Homo sapiens with 20 samples.

Results

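The BCL2 family sets whether a cell keeps its mitochondria intact, and 10 of its genes were followed here through red cell maturation: BCL2, BCL2L1, MCL1, BAX, BAK1, BCL2L11, BBC3, PMAIP1, BID and BAD. They were taken by gene symbol from 46425 genes in the deposited RNA-seq tables, by adding the values of all 93 transcripts that carry one of these symbols. The cells were HUDEP-2, a wild type erythroid progenitor line from human umbilical cord blood that was immortalized with inducible papillomavirus oncogenes and is kept in culture with doxycycline. Sampling began with undifferentiated cells (day 0) and went on daily to day 8, with a last time point at day 12, and each of the 10 days gave 2 RNA libraries, 20 in all. Undifferentiated cells were kept in a serum-free expansion medium with erythropoietin, stem cell factor (SCF), doxycycline and, by the study's methods, dexamethasone. Differentiation was induced in another medium, with erythropoietin, SCF, doxycycline, holo-transferrin, insulin, heparin and human serum, so in every comparison with day 0 the change of medium cannot be told apart from differentiation. SCF was left out from day 6 and doxycycline from day 8, so neither change can be told apart from the time in culture, and every library is from this 1 line. On day 12 the cultures were mostly orthochromatic erythroblasts that still had a nucleus, with reticulocytes and expelled nuclei beside them.

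In this family the survival proteins, among them BCL-2, Bcl-xL (made from BCL2L1) and MCL-1, hold the effectors BAX and BAK in check. BAX and BAK form the pores in the outer mitochondrial membrane that release cytochrome c. The BH3-only proteins BIM (BCL2L11), PUMA (BBC3), NOXA (PMAIP1), BID and BAD bind the survival proteins, and some of them also activate the effectors. Bcl-xL is known as the survival protein on which late erythroblasts depend, and MCL-1 as one needed earlier in the lineage.

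One table set held all days in 1 table (the all-day library of each day). The other was split into tables of days 0 to 6, of days 7 and 8, and of day 12 (the separate-day library). Every comparison here of day 7, 8 or 12 with an earlier day thus crosses between these tables in the separate-day libraries. Any difference between the tables cannot be told apart from the day there. Totals were 52131713 to 70358198 counts, so 3 counts, the limit that a count of 0 allows, were 0.0426 to 0.0575 CPM (the count scaled to its library's total), for counting error only. The separate-day libraries of days 7 and 8 were high in ribosomal RNA, with 18.5% and 17.5% of counts, against at most 4.08% in the other 18. Globin genes took 0.819% to 0.859% of counts on day 0, 8.49% to 9.85% on day 8 and 28.2% to 33.7% on day 12. All 12 erythroid markers were at 1 TPM (a level scaled for transcript length and library) or more in every library. Of 7 leukocyte markers 3 reached 1 TPM in any library (CD68, PTPRC and LYZ), and CD3E, MS4A1 and NKG7 were at 0. The sum of the 7 was 7.62 to 10.2 TPM on day 0 and 2.08 to 3.51 TPM on day 8. On another day CD68 alone reached 30.6 TPM in a library. Of 4 megakaryocyte markers only ITGA2B reached 1 TPM, with PF4 and PPBP at 0, and no marker of stem cells or stromal cells did. ITGA2B had 0.14 to 69.8 TPM over the libraries. The sum of the 4 was 10.7 TPM in 1 day 0 library and 68.95 TPM in the other. In bulk RNA, fewer cells of a type and less RNA per cell cannot be told apart.

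On day 0 BAX had the highest level per length of the 10, 185.4 ± 43.4 TPM (SD, n = 2), followed by MCL1 at 94.5 ± 0.304 TPM and BCL2L1 at 87.2 ± 16.4 TPM. The ranges of MCL1 and BCL2L1 overlapped. Below them came BCL2L11 (38.0 ± 8.57 TPM), then BAD, BID and BBC3 with overlapping ranges between 18.3 and 29.4 TPM, and BAK1 and PMAIP1, also overlapping, between 10.8 and 16.6 TPM. BCL2, the founding survival gene, had 0.707 ± 0.193 TPM. By day 12 the order had changed: BCL2L1 stood first with 484.9 ± 25.5 TPM, followed by BBC3 with 339 ± 57.5 TPM and BAX with 285 ± 22.4 TPM, the latter pair with overlapping ranges. BAD and MCL1 followed, again overlapping, with 47.1 ± 2.89 and 45.1 ± 22.3 TPM, and BAK1, BID and BCL2 had 0.664 ± 0.162, 0.187 ± 0.0620 and 0.00506 ± 0.00715 TPM.

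**Figure D1:**
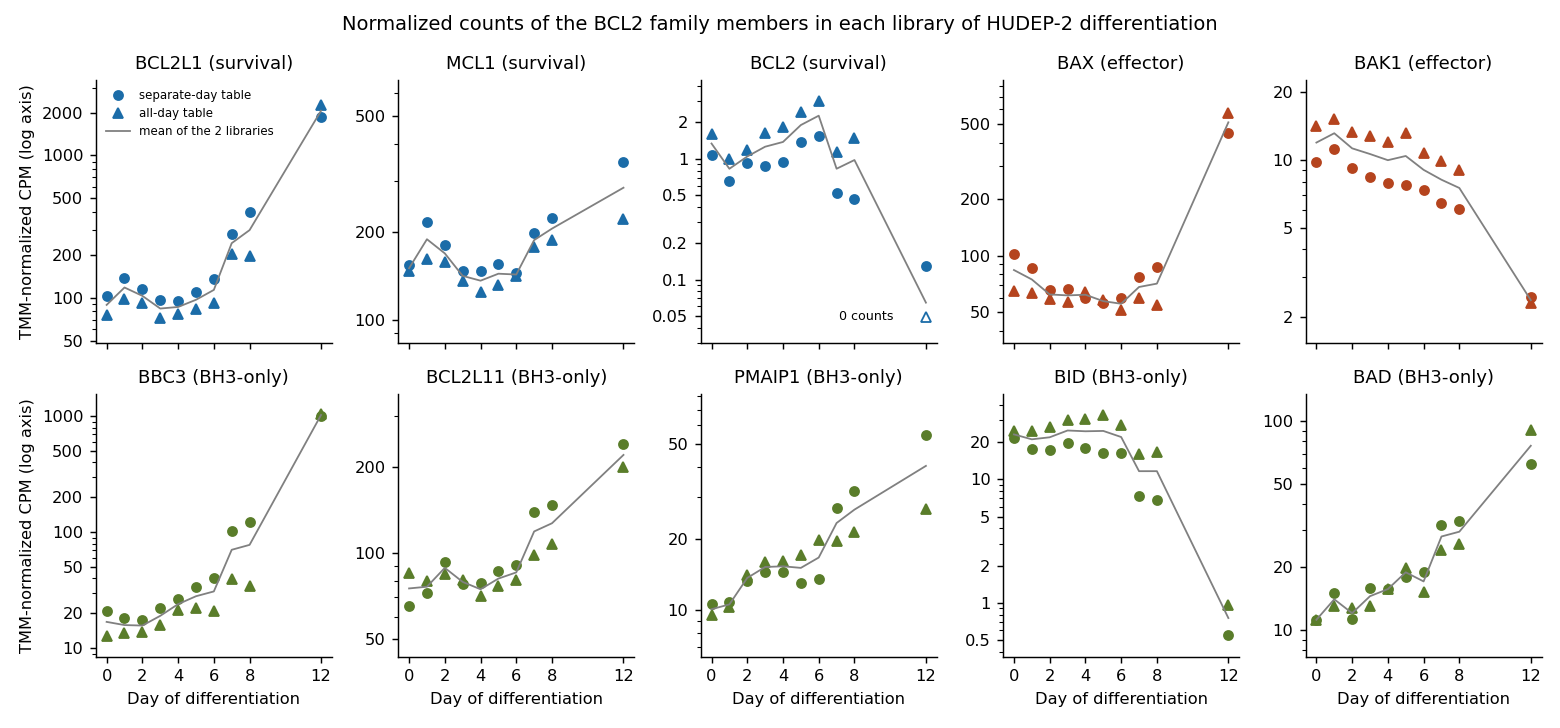
Normalized CPM (log axis) of each member against the day of differentiation, with circles for the separate-day library, triangles for the all-day library and a grey line through the mean of the 2. BCL2L1, BBC3 and BAX had their highest values on day 12, where BID and BAK1 had their lowest, and the open symbol marks the day 12 library with 0 counts of BCL2, drawn at the limit of 3 counts.

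Levels between days were compared on counts with edgeR's quasi-likelihood test and trimmed-mean (TMM) normalization, fitted on all genes, with Benjamini-Hochberg adjusted p under 0.05 as the threshold. Of the 10 members 10 differed among the 10 days, against 66.0% of all 16784 genes tested. On day 1 no member differed from day 0 (background 0.393% of genes), and none had an unadjusted p under 0.05 either. DESeq2 also called 0. BCL2L1, for example, had 138 and 97.5 normalized CPM on day 1 against 103 and 75.0 on day 0, so its ranges overlapped (log2 fold change 0.41 ± 0.33 SE).

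For days 4 to 6, the basophilic stage, 1 member differed from day 0 (background 16.6%, with 7.38% higher and 9.22% lower). BAD rose by 0.62 ± 0.17 on the log2 scale (adjusted p = 0.0278). The call was lost (0 members) without the separate-day library of day 0, day 4 or day 6, or without the all-day library of day 5. BAX (-0.53 ± 0.20, adjusted p = 0.0911) and PMAIP1 (0.63 ± 0.26, adjusted p = 0.113) had unadjusted p-values under 0.05 without passing.

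On day 8, the polychromatic stage, 3 members were higher than on day 0 in the 4 libraries of these days, against 25.1% of genes called in either direction, 11.5% higher and 13.7% lower. They were BCL2L1 (1.76 ± 0.39 on the log2 scale, adjusted p = 0.0320), PMAIP1 (1.41 ± 0.28, adjusted p = 0.0249) and BAD (1.42 ± 0.23, adjusted p = 0.0167). A further 3 had an unadjusted p under 0.05: BBC3 at 2.22 ± 0.64, BCL2L11 at 0.77 ± 0.24 and MCL1 at 0.47 ± 0.17, with adjusted p-values of 0.0586, 0.0686 and 0.105. The value of BBC3 was 1.03 without the separate-day library of day 8 and 2.86 without the all-day library of that day, and in the latter case, as with all 20 libraries, edgeR's exact test and DESeq2, it passed. With all 20 libraries in the fit, 5 members were higher. Without either day 0 library none was called, and without the all-day library of day 8 there were 6 (5 higher and 1 lower).

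Against days 4 to 6, day 8 had 6 members higher (background 22.7% in either direction, 11.9% higher and 10.8% lower): BCL2L1, MCL1, BCL2L11, BBC3, PMAIP1 and BAD. The changes were between 0.54 ± 0.16 for MCL1 (adjusted p = 0.0263) and 1.61 ± 0.25 for BCL2L1 (adjusted p = 0.000997). These calls rested on 1 library: without the separate-day library of day 8, which was high in ribosomal RNA, 0 members passed, and the change of BCL2L1 was then 1.00 and that of BBC3 0.31 in place of 1.501. The rise of PMAIP1 also depended on the scaling. Its mean TPM was 16.7 on day 8, against 16.9, 16.0 and 17.1 on days 4, 5 and 6. Under the alternatives tried, the smallest changes were 0.020 for PMAIP1, 0.097 for MCL1 and 0.20 for BCL2L11. With TMM these were 0.76, 0.54 and 0.66. From day 6 to day 7, the first day without SCF, 0 members passed (background 2.57%, with 0.882% higher and 1.69% lower), with 4 at an unadjusted p under 0.05. BCL2L1 was 1.09 ± 0.33 higher (adjusted p = 0.0884) and BAD 0.71 ± 0.21 higher (adjusted p = 0.0774). DESeq2 called 2 members there, and a term for the table a library came from gave 4.

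Between day 8 and day 12 the family split: 8 members differed, 5 higher and 3 lower, against 57.2% of genes in either direction, 23.8% higher and 33.4% lower. BBC3 (3.72 ± 0.59), BAX (2.85 ± 0.27), BCL2L1 (2.79 ± 0.35), BAD (1.37 ± 0.21) and BCL2L11 (0.79 ± 0.20) were higher on the log2 scale, although with limma on log2(TPM + 1) BAD (-0.08) and BCL2L11 (-0.63) had the opposite sign. BID (-3.96 ± 0.62), BCL2 (-3.83 ± 0.95) and BAK1 (-1.65 ± 0.39) were lower. From day 0 to day 12 all 10 differed, 7 higher and 3 lower, where 68.2% of genes differed, 29.7% higher and 38.5% lower.

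**Figure D2:**
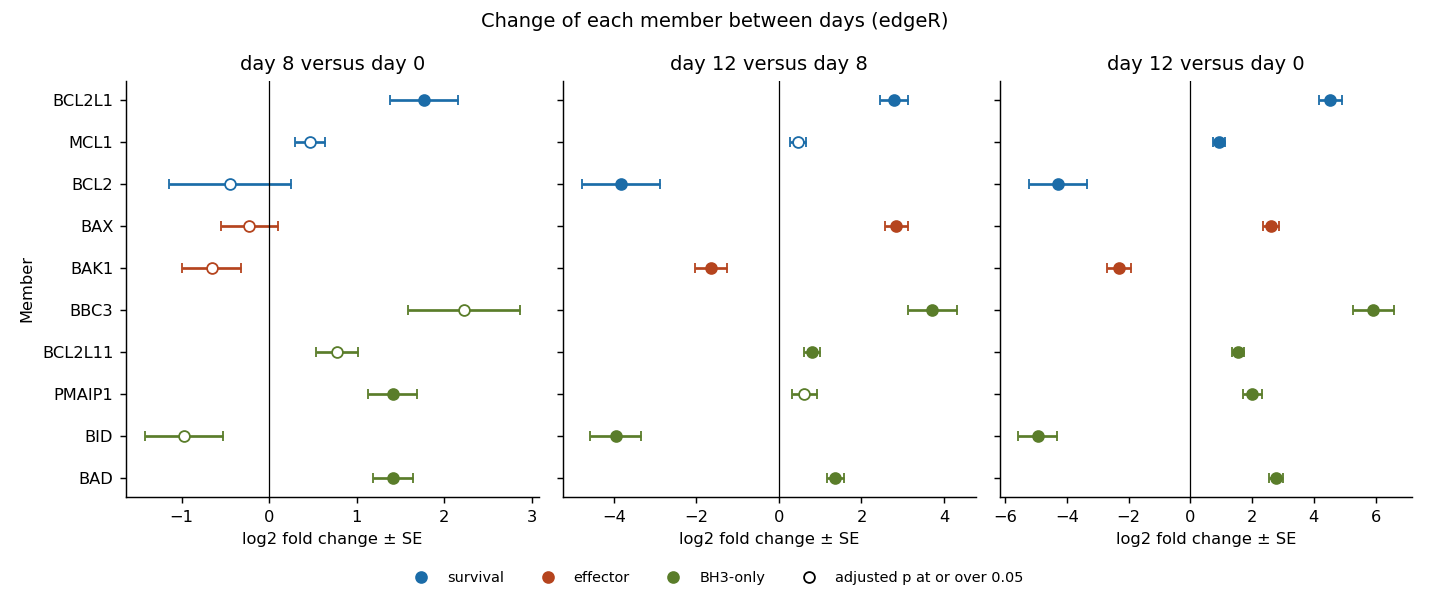
Log2 fold change of each member (points) with its SE (bars) in edgeR for day 8 versus day 0, day 12 versus day 8 and day 12 versus day 0, coloured by role, with open points where the adjusted p was 0.05 or more. On day 12 BCL2L1, BAX and BBC3 lay to the right of 0 and BCL2, BAK1 and BID to the left in both later panels.

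The scaling mattered on day 12, when globin took so much of each library. Scaling by library totals in place of TMM moved the median change of all genes by -1.03 on the log2 scale between day 0 and day 12, by -0.68 between day 8 and day 12 and by -0.36 between day 0 and day 8. From day 0 to day 12 the changes of BCL2L1 (4.54 ± 0.38, adjusted p = 1.52e-07), BBC3 (5.93 ± 0.66, adjusted p = 2.59e-06), BAX (2.61 ± 0.27, adjusted p = 1.12e-06) and BAD (2.77 ± 0.22, adjusted p = 9.84e-08) were positive under every scaling tried, and those of BID, BAK1 and BCL2 negative. MCL1 went from 0.92 with TMM (adjusted p = 0.00111) to -0.27 with library totals and -1.14 with limma on log2(TPM + 1). BCL2L11 went from 1.55 to -0.48 and PMAIP1 from 2.01 to -0.49 on TPM. For MCL1, BCL2L11 and PMAIP1 the direction on day 12 thus depended on the scaling. With globin and ribosomal RNA genes taken out and the rest rescaled, the log2 ratio of mean TPM from day 0 to day 12 was 0.28 for MCL1, 0.89 for BCL2L11 and 0.93 for PMAIP1.

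**Figure D3:**
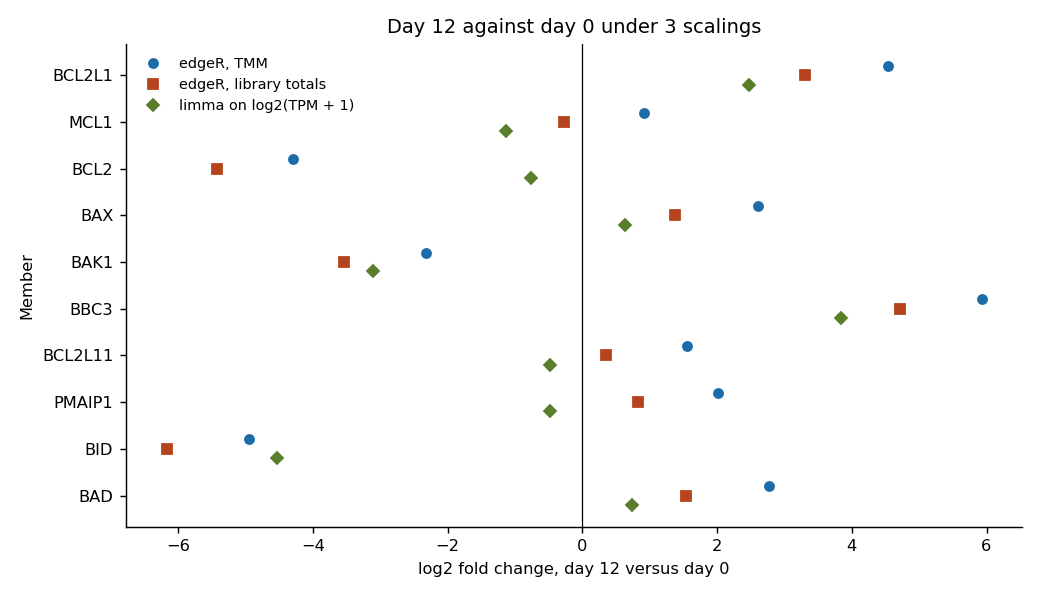
Log2 fold change of each member from day 0 to day 12 with edgeR and TMM (circles), edgeR and library totals (squares) and limma on log2(TPM + 1) (diamonds). BCL2L1, BBC3, BAX and BAD stayed above 0 and BID, BAK1 and BCL2 below 0 under all 3, while MCL1, BCL2L11 and PMAIP1 crossed 0.

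BCL2L1 encodes Bcl-xL and, by an alternative splice donor, the shorter Bcl-xS, which promotes death. The gene lies on chromosome 20, positions 31664452 to 31723963 (hg38), on the minus strand. It had 103 and 75.0 normalized CPM on day 0 (separate-day library first, as in all such pairs), 134 and 92.4 on day 6, 279.8 and 204 on day 7, 401 and 197 on day 8, and 1853 and 2272 on day 12. All 4 libraries of days 7 and 8 were above those of days 0 to 6, and both day 12 libraries were above the rest. Within the separate-day tables the log2 difference from day 0 to day 8 was 1.96, and within the all-day table it was 1.39.

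The 13 annotated transcripts of BCL2L1 were not equally involved. RefSeq places 4 of them at an upstream start (position 31723963), 5 at a downstream start (31722868) and 4 at other positions between 31722330 and 31722561. On days 0, 8 and 12 the summed TPM of the downstream start was 46.3, 119 and 417 (mean of 2 libraries), and that of the upstream start 25.8, 26.3 and 16.6. Accordingly the downstream start held 54.6% and 51.2% of the gene's TPM on day 0, 65.6% and 59.3% on day 8, and 86.6% and 85.3% on day 12. The upstream share was 28.5% and 31.1% on day 0, 12.01% and 17.2% on day 8, and 3.08% and 3.78% on day 12, with no overlap between these 3 days. The day 8 shares did overlap those of other days. On day 5 the upstream share was 16.85% to 28.8%, and on day 1 the downstream share was 60.15% to 60.8%. Only day 12 lay apart from all other days in both shares. This grouping was made after the values had been seen and was not tested, and the authors' software had to divide the reads of exons that these transcripts share.

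**Figure D4:**
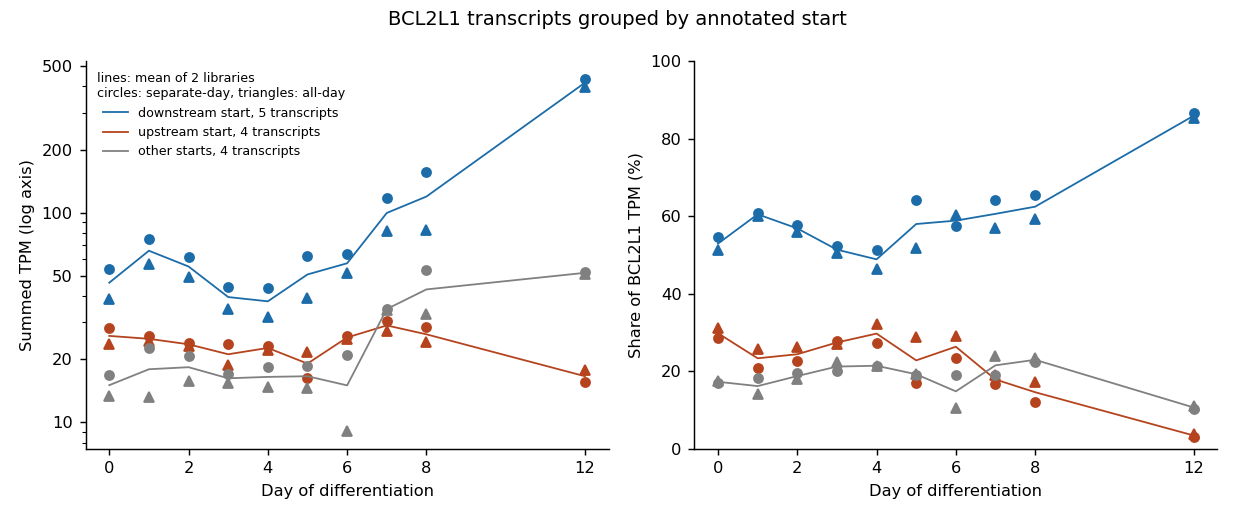
BCL2L1 transcripts summed by annotated start, as TPM (log axis, left) and as a share of the gene's TPM (right), against the day, with a point for each library and lines through the mean of 2 libraries. The downstream start went from 46.3 to 417 TPM between day 0 and day 12, while the upstream start stayed between 16.6 and 29.0 TPM.

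The windows around both starts, 250 bases before to 50 after (RefSeq, GRCh38.p14, minus strand), are shown because they are the stretches at which those transcripts begin. Capitals mark TATAAA.
BCL2L1 downstream start, chr20:31722819-31723118: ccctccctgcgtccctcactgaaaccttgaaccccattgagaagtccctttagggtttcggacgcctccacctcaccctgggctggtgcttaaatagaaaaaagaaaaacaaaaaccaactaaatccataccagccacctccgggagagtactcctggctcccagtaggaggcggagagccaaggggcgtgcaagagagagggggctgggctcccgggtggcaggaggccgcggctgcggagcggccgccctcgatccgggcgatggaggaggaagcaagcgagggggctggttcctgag
BCL2L1 upstream start, chr20:31723914-31724213: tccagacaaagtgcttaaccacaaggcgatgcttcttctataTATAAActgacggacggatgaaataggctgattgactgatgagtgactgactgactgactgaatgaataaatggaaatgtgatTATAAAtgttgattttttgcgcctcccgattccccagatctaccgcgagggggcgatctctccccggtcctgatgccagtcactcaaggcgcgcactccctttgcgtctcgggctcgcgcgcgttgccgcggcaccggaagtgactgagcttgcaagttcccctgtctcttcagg
Both windows were searched on both strands for the GATA letters AGATAA, the STAT letters TTCNNNGAA, the FOXO letters GTAAACA, the core promoter letters TATAAA, the E-box letters CACGTG and the letters CCAAT. The upstream window held TATAAA at 208 and 125 bases before the start and none of the others, and the downstream window held none of the 6. Of 35116 RefSeq promoter windows of this length, 11.5% held TATAAA, 10.3% GATA letters, 7.66% STAT letters, 3.42% FOXO letters, 7.26% CACGTG and 34.6% CCAAT. Over the 15 windows of the members with an entry (all but MCL1), 0 held GATA or STAT letters and 1, that of BCL2L11, held FOXO letters. TATAAA was in 1 (BCL2L1), CACGTG in 4 (of BAX, BBC3 and BID) and CCAAT in 6 (of BAD, BAK1, BAX, BBC3 and BCL2L11). No match says only that these letters are not in this window.

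The splice donors that part Bcl-xL from Bcl-xS lie in the exon with the start codon, 189 bases apart, which is also the length difference between transcript variants 1 and 2 in the deposited tables. They are shown with the last 15 exon bases in capitals and the first 15 intron bases in lower case (hg38, minus strand, donors from GENCODE 44).
Bcl-xL donor, chr20:31721640-31721669: GAGAACGGCGGCTGGgtaagaaccaagccc
Bcl-xS donor, chr20:31721829-31721858: CAGAGCTTTGAACAGgtagtgaatgaactc
Variant 1 (NM_138578), which ends this exon at the Bcl-xL donor, had TPM values of 23.1 and 13.1 before differentiation, 61.2 and 37.7 at day 8, and 218 and 194 at day 12. Its share of BCL2L1 TPM was 20.4% on average on day 0, 26.4% on day 8 and 42.4% on day 12. Variant 2 (NM_001191), which uses the Bcl-xS donor, had 5.92 and 2.44 TPM on day 0 and 47.4 and 39.5 TPM on day 12. Both passed the test on transcripts from day 8 to day 12 (variant 1 3.12 ± 0.46, adjusted p = 0.000515, and variant 2 2.86 ± 0.76, adjusted p = 0.0244). Variant 2 made 20.4% and 15.7% of the TPM of this pair on day 0 and 17.9% and 16.9% on day 12, so the ranges of the 2 days overlapped. This pair leaves out the gene's other transcripts. BCL2L1 as a whole had 98.7 and 75.6 TPM on day 0 and 502.9 and 466.9 TPM on day 12. Of that whole, variant 2 took a larger share in both day 12 libraries than in either day 0 library, which was not tested. The non-coding antisense gene ABALON overlaps this exon and the downstream start on the other strand. It had at most 252 counts, against 4445 to 64032 for BCL2L1, and the strand setting of the counting is not given in the sources used here.

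MCL1 (chromosome 1, 150574551 to 150579738), whose protein is short-lived, had 154 and 146 normalized CPM on day 0, 216 and 162 on day 1, 147 and 125 on day 4, 223 and 187 on day 8, and 347 and 221 on day 12. On the TPM scale it had 94.3 and 94.7 on day 0, 84.4 and 85.5 on day 8, and 60.9 and 29.3 on day 12. The day 12 libraries thus lay above those of day 0 on the first scale and below them on the second. Variant 1, the full-length form, held 95.2% to 98.3% of MCL1 TPM on the means of all 10 days. Among 5 regulators of MCL-1 protein turnover, 3 were called higher on day 8 than on day 0 and 0 lower (all genes 11.5% and 13.7%), with FBXW7, a subunit of a ligase for MCL-1, at 1.33 ± 0.26 (adjusted p = 0.0245) and USP9X, a deubiquitinase, at 0.89 ± 0.23 (adjusted p = 0.0437). In TPM, FBXW7 had 11.1 ± 3.96 on day 0 and 18.1 ± 5.58 on day 8. USP9X had 35.0 ± 10.3 and 42.2 ± 6.33 TPM, with overlapping ranges.

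BCL2 (chromosome 18, 63123346 to 63320280) was near the bottom of the range throughout. Its counts were 72 and 123 on day 0, 109 and 186 on day 6, 26 and 59 on day 7, 26 and 77 on day 8, and 4 and 0 on day 12. The all-day library had the higher count on each of the days 0 to 8, and both day 12 libraries were below all others. From day 8 to day 12 the fitted change of -3.83 (adjusted p = 0.00354) rests on these 4 counts and depends on the prior count of the fit. It was -8.99 without the separate-day library of day 12, -2.79 without the all-day library of day 8 and -2.91 without the all-day library of day 12, and with limma on log2(TPM + 1) it was -0.50 and missed the threshold (adjusted p = 0.0678). From day 6 to day 7 it was -1.45 ± 0.74 (adjusted p = 0.298), and from day 0 to day 8 -0.44 ± 0.69 (adjusted p = 0.659), with 0.17 in place of -0.44 without the separate-day library of day 8.

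Among the effectors, BAX (chromosome 19, 48954825 to 48961798) had 103 and 65.3 normalized CPM on day 0, 59.8 and 64.4 on day 4, 87.7 and 54.6 on day 8, and 449.5 and 575.5 on day 12. Both day 12 libraries were above all earlier ones. Days 0 and 8 overlapped (-0.22 ± 0.33, adjusted p = 0.634), and the sign turned without the separate-day library of day 0 (0.13) or the all-day library of day 8 (0.07). BAK1 (chromosome 6, 33572552 to 33580296) went the other way, with 9.78 and 14.1 normalized CPM on day 0, 6.02 and 8.97 on day 8, and 2.45 and 2.31 on day 12. From day 0 to day 8 the change of BAK1 missed the threshold (-0.66 on the log2 scale, adjusted p = 0.1996). Its fall from day 8 to day 12 (adjusted p = 0.00229) left 76 and 65 counts in the day 12 libraries. BAX held 89.4% to 96.7% of the summed effector TPM on days 0 to 8 and 99.7% and 99.8% on day 12. Within BAX, variant epsilon (NR_027882), annotated as non-coding, went from 6.5% of the gene's TPM on day 0 to 17.0% on day 12 on average, while variant beta (NM_004324) had 41.6% and 37.0% on day 0 and 24.3% and 42.9% on day 12, which overlapped. From day 8 to day 12 the test on transcripts called both higher, with 3.48 ± 0.87 (adjusted p = 0.0167) and 2.66 ± 0.38 (adjusted p = 0.000402). Variant alpha (NM_138761), with 19.3% on day 0 and 16.2% on day 12 on average, missed the threshold there (2.01 ± 0.64, adjusted p = 0.0579).

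Of the BH3-only genes BBC3, which encodes PUMA and is a known p53 target, had the largest increase from day 0 to day 12 in normalized CPM. It lies on chromosome 19 (47220822 to 47232998) and had 21.1 and 12.7 normalized CPM on day 0, 40.7 and 21.1 on day 6, 102 and 39.5 on day 7, 122 and 34.2 on day 8, and 1010 and 1046 on day 12. On days 7 and 8 the separate-day library was well above the all-day library, and on day 12 the pair lay close together and above all others. From day 0 to day 8 the log2 difference was 2.52 within the separate-day tables and 1.43 within the all-day table. The division among its transcripts differed between the libraries of a day. Variant 4 (NM_014417) held 98.6% and 33.8% of BBC3 TPM on day 0, 92.2% and 99.0% on day 8, and 95.0% and 94.0% on day 12. The predicted variant X1 (XM_011526722) held 0.955% and 64.9% on day 0, 6.91% and 0.564% on day 8, and 2.38% and 1.85% on day 12. For both transcripts the day 0 pair spanned the day 12 values. Variants 1 to 3, which begin further upstream, held at most 3.2% on the mean of any day.

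BCL2L11, which encodes BIM, had TPM values on day 0 that overlapped those of day 8 and those of day 12. These were 32.0 and 44.1 on day 0, 45.1 and 39.1 on day 8, and 33.7 and 21.1 on day 12. On the normalized scale it had 65.1 and 85.3 CPM on day 0, 147 and 107 on day 8, and 240 and 200 on day 12. The 38 listed transcripts were led by variant 1 (NM_138621), with 28.5% and 27.9% of the gene's TPM on day 0 and 57.1% and 33.8% on day 12, and variant 6 (NM_006538), with 15.3% and 19.1% on day 0 and 21.3% and 24.9% on day 12. None of the transcripts passed the test between days 0 and 8 or days 8 and 12.

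PMAIP1, which encodes NOXA, a BH3-only protein that binds MCL-1 above all, had 10.6 and 9.54 normalized CPM on day 0, 13.6 and 19.7 on day 6, 31.8 and 21.3 on day 8, and 54.5 and 26.6 on day 12. Variant 6 (NM_021127) held 85.0% and 84.7% of the gene's TPM on day 0, 39.4% and 85.3% on day 8, and 36.8% and 43.1% on day 12. Variant 4 (NM_001382623), annotated as 4118 bases long against 1899, held 14.99% and 9.34% on day 0, 45.6% and 13.97% on day 8, and 51.6% and 39.5% on day 12. Variant 6 was thus lower and variant 4 higher in both day 12 libraries than on day 0, while the libraries of day 8 differed from each other, and on day 12 variant 4 led in the separate-day library and variant 6 in the all-day library. These shares were not tested, and neither transcript passed the test on its level between days 0 and 8 or days 8 and 12.

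BID, which is cut by caspase-8 and then moves to mitochondria, had 21.5 and 24.8 normalized CPM on day 0, 16.4 and 27.6 on day 6, 7.28 and 16.0 on day 7, 6.74 and 16.6 on day 8, and 0.549 and 0.958 on day 12. All 4 libraries of days 7 and 8 were below those of day 0, and the day 12 libraries held 17 and 27 counts. From day 0 to day 8 the change of -0.98 ± 0.44 missed the threshold (adjusted p = 0.158), and from day 8 to day 12 BID fell by 3.96 on the log2 scale (adjusted p = 9.41e-05).

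BAD, which is held inactive by phosphorylation under growth factor signalling, had 11.2 and 11.2 normalized CPM on day 0, 17.9 and 19.9 on day 5, 33.3 and 25.9 on day 8, and 62.3 and 90.3 on day 12. Both libraries of day 8 were above those of days 0 to 6. In TPM it had 26.3 and 29.4 on day 0, 50.9 and 48.99 on day 8, and 45.0 and 49.1 on day 12, so days 8 and 12 overlapped there. Variant 2 (NM_032989) held 75.6% to 90.2% of its TPM on the daily means and was called higher from day 0 to day 8 (1.57 ± 0.29, adjusted p = 0.0149). BAD overlaps the protein-coding gene GPR137, which lies on the other strand and had up to 2568 counts, as many as the 755 to 2545 of BAD, so with the strand setting not given its values are less certain than those of the others. Over all 75 member transcripts tested, 2 were called between days 0 and 8 (background 2.04% of 75285 transcripts), those of BAD above and variant 1 of BCL2L1, and 12 between days 8 and 12 (background 14.2%), 9 higher and 3 lower, from 6 genes.

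Set against each other within each library, the survival genes went from a balance of BCL2L1 and MCL1 to an excess of BCL2L1. The ratio of BCL2L1 to MCL1 in TPM was 1.05 and 0.799 on day 0, stayed between 0.830 and 1.46 on days 1 to 6, and was 2.20 and 1.80 on day 7, 2.81 and 1.64 on day 8, and 8.26 and 15.9 on day 12. BCL2L1 held 51.0% and 44.2% of the summed survival TPM on day 0, 73.7% and 61.9% on day 8 and 89.2% and 94.1% on day 12. These ratios do not depend on how a library is scaled.

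BBC3 had the largest share of the BH3-only genes in both libraries of a day on day 12 only, and in the separate-day libraries from day 5 on. It held 22.8% and 13.8% of their summed TPM on day 0, 45.9% and 21.9% on day 8, and 80.7% and 79.8% on day 12. The day 8 pair straddled the day 0 library with the higher share, and both day 12 libraries were above all others. Summed survival TPM was 0.853 and 0.999 times summed effector TPM on day 0, 2.61 and 2.35 times on day 8, and 1.87 and 1.84 times on day 12. Days 7 and 8 had the highest values of this ratio. Against the BH3-only genes it was 0.938 to 2.04 times over all 20 libraries, with 1.59 and 1.29 on day 0 and 1.20 and 1.33 on day 12, which overlapped.

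**Figure D5:**
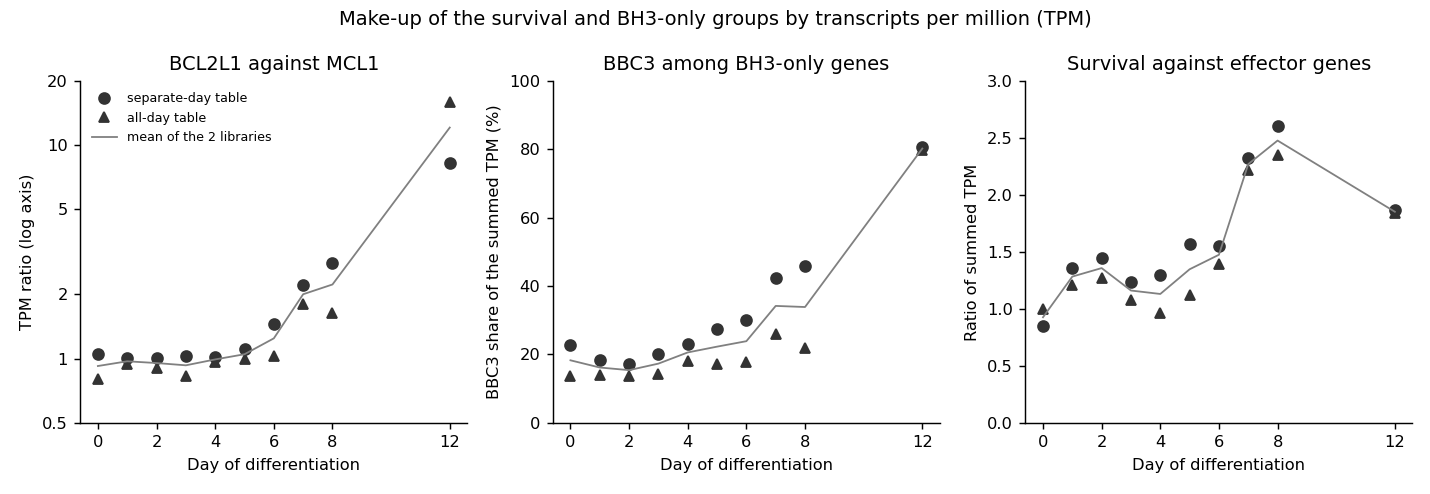
Ratio of BCL2L1 to MCL1 TPM (log axis, left), share of BBC3 in the summed TPM of the 5 BH3-only genes (middle) and ratio of summed survival to summed effector TPM (right) in each library by day, with the mean of 2 libraries as a line. The first panel reached 8.26 and 15.9 on day 12, the second 80.7% and 79.8%, and the third had its highest values on days 7 and 8.

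Genes around the family were counted from lists chosen with earlier results of these data known. Of all genes tested, 11.5% were called higher and 13.7% lower on day 8 than on day 0, and 29.7% higher and 38.5% lower on day 12, with TMM. Of 13 other family members 9 could be tested. From day 0 to day 8 BCL2L15 rose (4.37 ± 0.53, adjusted p = 0.00994), at a low level. Its mean TPM was 0.0599 on day 0, 0.861 on day 8 and 0.0598 on day 12. BIK and BOK fell by 2.62 and 2.54 on the log2 scale from day 0 to day 8 (adjusted p = 0.0177 and 0.0374). BIK is a BH3-only protein and BOK an effector relative, and both were listed at 0 TPM in the day 12 libraries. Of 15 caspase and apoptosome genes 3 were called lower on day 8 and 0 higher, and 11 lower and 2 higher on day 12 against day 0. The higher pair, CASP9 and CASP10, had lower mean TPM on day 12 than on day 0 (4.47 against 6.03 and 3.65 against 9.70), so their direction depended on the scaling. DFFB, the caspase-activated nuclease, fell by 1.95 (adjusted p = 0.0152) and its inhibitor DFFA by 1.55 (adjusted p = 0.0178) from day 0 to day 8. The median change of this list from day 0 to day 12 was -1.73, against -0.29 for all genes tested.

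Of 6 caspase inhibitors 3 were called higher with TMM on day 12 than on day 0 and 1 lower (all genes 29.7% and 38.5%). Mean TPM was also higher for BIRC2 (54.5 against 19.5) and CFLAR (31.1 against 13.4), but not for XIAP (6.36 against 12.4). Among 7 tested death receptors and adaptors, 1 was lower on day 8, the TRAIL receptor gene TNFRSF10A (-3.53 ± 0.36, adjusted p = 0.00779), and on day 12 4 were called higher with TMM and 3 lower than on day 0. Of these 4 only TNFRSF10B also had the higher mean TPM on day 12 (24.9 against 20.1), while FAS (6.77 against 6.996), TRADD (6.18 against 12.7) and RIPK1 (9.10 against 29.2) had the lower. Of the 3 VDAC channels of the outer mitochondrial membrane, VDAC1 fell by 1.87 from day 0 to day 8 (adjusted p = 0.00585), from 235.5 ± 14.04 to 42.5 ± 8.93 TPM. Of 7 transcription factors known to act on members, 3 were higher and 1 lower on day 8 (all genes 11.5% and 13.7%). FOXO3, known to act on BCL2L11 and BBC3, rose by 2.54 ± 0.35 (adjusted p = 0.0123) and E2F1 by 1.17 ± 0.26 (adjusted p = 0.0315), while STAT5A, known to act on BCL2L1, fell by 1.71 (adjusted p = 0.0230).

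The genes whose log2 normalized CPM followed that of a member most closely over the 20 libraries were taken from 16774 genes, as a description only, since libraries share their scaling and the days are ordered in time. For BCL2L1 they were MIR22HG (Pearson r = 0.994), GABARAPL1 (0.993) and CHIC2 (0.990), and for BCL2L11 they were MBNL2 (0.974), FCHO2 (0.972) and UBE2B (0.971). For MCL1 the nearest were lower, CA3-AS1 (0.941), NEK7 (0.934) and ACTR3 (0.923).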

How the data were processed

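The authors made libraries with the TruSeq Stranded mRNA kit and, per the labels, used Trimmomatic 0.38, HISAT2 2.1.0 and StringTie 2.1.3b with hg38. They deposited whole-number read counts per RefSeq transcript, without normalization, and TPM, which the authors scaled for length and library. Of the value columns 40 were read, and 23 (FPKM, and day 0 values repeated beside the separate day 12 library) were not used. How reads shared by transcripts were divided is not given in the sources used here.

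Counts and TPM were summed by gene symbol. Counts were tested with edgeR 4.0.16 (filterByExpr, TMM, glmQLFit, glmQLFTest), with day as a factor over 20 libraries, except day 8 versus day 0, which used the 4 libraries of those days. P-values were adjusted (Benjamini-Hochberg) over all features tested, threshold 0.05. SE is the absolute log2 fold change over the square root of F. Alternatives used DESeq2 1.42.0 and limma 3.58.1. The fits were also run on simulated counts, drawn with the same spread for every gene and no offset between the table sets. That run cannot show how the test behaves under such offsets.

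The members, lists and comparisons were chosen with earlier results of these data known. Named were all 10 members, and up to 2 called rises and 2 falls per list with a mean of at least 10 counts. Of the members' transcripts, 28 had at least 10% of the gene's TPM, and not all of them are given here. Variant 2 of BCL2L1 was added after its values were seen. The columns give a day and no replicate number. The labels do not say that a day's libraries came from separate cultures, so p-values measure the spread between these libraries, which may be technical. A leukocyte marker and a sequence are not reported here.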

Additional observations from a re-analysis of the deposited data

How the results depend on the processing

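No paired analysis was possible because the deposited columns carry no replicate numbers. Libraries of different days could be matched only by the table they came from, which the term for the deposited table does as an alternative. On each of the days 0 to 8, BCL2, BAK1 and BID had more normalized CPM in the all-day library. BCL2L1, MCL1 and BBC3 had more in the separate-day library, and the other members had no fixed order. The main test has no such term, so these offsets stay in its spread between libraries. Of the counts of called members, those for any day, day 1 versus day 0, day 12 versus day 8 and day 12 versus day 0 stayed within 1.5 times the reported count under all alternatives. For days 4 to 6 versus day 0 there were 2 in place of 1 with a term for the deposited table, with library totals and with limma on log2(TPM + 1) and on log2(TPM + 0.1), and 0 to 1 with 1 library left out. For day 8 versus day 0 there were 5 in place of 3 with all 20 libraries in the fit, with edgeR's exact test and with DESeq2, and 0 to 6 with 1 library left out. For day 8 versus days 4 to 6 there were 3 in place of 6 with library totals and with limma at either pseudocount, 0 without the libraries high in ribosomal RNA, and 0 to 7 with 1 library left out. For day 7 versus day 6 there were 1 with no filter beyond 1 count, 2 with DESeq2 and 4 with a term for the table, in place of 0. Where 1 library was left, it was assumed to vary like the other days.

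Changes of sign were these. With library totals, from day 8 to day 12, MCL1 had -0.33, BCL2L11 -0.0087 and PMAIP1 -0.15, and from day 0 to day 12 MCL1 had -0.27. With limma on log2(TPM + 1) and on log2(TPM + 0.1), respectively, MCL1 had -0.15 and -0.15 from day 0 to day 8. From day 8 to day 12 MCL1 had -0.99 and -1.01, BCL2L11 -0.63 and -0.65, PMAIP1 -0.99 and -1.08 and BAD -0.084 and -0.086. From day 0 to day 12 MCL1 had -1.14 and -1.16, BCL2L11 -0.48 and -0.49, and PMAIP1 -0.49 and -0.55. Rescaled without globin and ribosomal RNA genes, the log2 TPM ratio from day 0 to day 12 was 0.28 for MCL1, 0.89 for BCL2L11 and 0.93 for PMAIP1. For MCL1 the day 12 libraries spanned the day 0 mean. From day 0 to day 8, BCL2 had 0.17 without the libraries high in ribosomal RNA and without the separate-day library of day 8, and BAX had 0.13 without the separate-day library of day 0 and 0.074 without the all-day library of day 8. PMAIP1 had -0.022 from day 8 to day 12 without the separate-day library of day 12. Of the other values of single members, 1177 kept their direction and their side of the threshold, 59 lost the call and 40 gained it. Library totals and DESeq2's size factors in edgeR's test were added after seeing the data. BCL2 at 10 counts in every library could not be tested. Depth limits BCL2 most, with 186 counts at its highest.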
